A study of Mus musculus with 6 samples.

Results

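The genes described here encode the ARP2/3 complex and its activator WASP. They were taken by name: the subunit genes Actr2, Actr3, Arpc1a, Arpc1b, Arpc2, Arpc3, Arpc4, Arpc5 and Arpc5l, and Was, together 10 of the 54532 genes in the deposited RNA-seq values. The choice follows their names and known roles, not a threshold on a measured value, but was made with earlier results of these data known. The ARP2/3 complex starts a new actin filament on the side of an existing one and so builds the branched networks that push out lamellipodia and phagocytic cups. WASP, the Wiskott-Aldrich syndrome protein of blood cells, is opened by the GTPase CDC42 and hands actin and the complex to each other. In macrophages this machinery is known for podosomes, chemotaxis and phagocytosis, and in leukocytes in general for migration.

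The libraries came from C57BL/6 mice, provided at 6 to 8 weeks of age, with 1 library for each of 6 conditions. Their age when the cells were taken is not given in the sources used here. WT mice received PBS and WT/FE mice iron dextran, 6 intraperitoneal injections of 0.2 mL at 25 mg/mL every other day. MA9 and MA9/FE mice were recipients of GFP+ acute myeloid leukemia cells, which derive from c-Kit+ bone marrow (BM) cells that carry the MLL-AF9 fusion from an MSCV retrovirus, and were given PBS or the same course of iron dextran from 1 week after the transplantation. Macrophages of all 4 kinds of mice and leukemia cells of the MA9 and MA9/FE mice were sequenced. In the labels the macrophages come from the spleen and the leukemia cells from BM, while the methods of the study describe macrophages of the BM, sorted as GFP- Gr-1lo F4/80+ CD115int cells. How many mice gave each library is not given in the sources used here. With 1 library per condition no value has a replicate check, and the error given is the 95% interval of read counting alone.

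Library size was fitted so that the deposited FPKM (fragments per kilobase of exon, scaled to the size of the library) gave whole reads. It lay between 16085346 and 19518358 reads and is not a sum over genes. The 10 genes together held between 54779 and 77281 recovered reads, or 0.322% to 0.426% of that size. All 17 macrophage markers were at or above 1 FPKM in each of the 4 macrophage libraries, with a summed level of 528 to 1177 FPKM, against 249 and 260 FPKM in the leukemia cells. Cd68 went against the sum, with 100.12 and 107.04 FPKM in the leukemia cells and 71.87 to 91.65 FPKM in the macrophages. Csf1r (66.64 and 70.73 FPKM) and Cd163 (6.3 and 7.1 FPKM) were there above WT and MA9 but below WT/FE and MA9/FE macrophages. Every other marker of this list was lower in both leukemia libraries than in each macrophage library. The 10 B cell markers summed to between 1277 and 2286 FPKM in the macrophage libraries and to 22.8 and 21.8 FPKM in the leukemia cells, and none was at 0 in any library. The 5 plasma cell markers summed to 990 to 2547 FPKM in the macrophage libraries and to 76.2 and 77.2 FPKM in the leukemia cells. The macrophage libraries thus held much RNA of B lineage markers beside that of the labelled cell. The 15 neutrophil markers summed to 13.4 and 11.3 FPKM in WT and WT/FE macrophages, with 3 of them at 0, to 1952 FPKM in MA9 and 996 FPKM in MA9/FE macrophages, and to 7324 and 6066 FPKM in the leukemia cells. Ltf and Lcn2 went against this order, with 82.24 and 47.76 FPKM in MA9 macrophages. In the leukemia cells Ltf was at 51.82 and 40.12 FPKM and Lcn2 at 45.73 and 32.52 FPKM. Ngp in MA9 macrophages (371.97 FPKM) lay between the leukemia libraries (418.16 and 320.28 FPKM). The 9 MLL-AF9 target genes summed to 206 and 225 FPKM in the leukemia cells and to 18.9 to 27.3 FPKM in the macrophages. Jmjd1c went against this sum, with 9.68 and 9.97 FPKM in the leukemia cells and 10.18 to 17.19 FPKM in the macrophages. ARP2/3 subunits are made in nearly every cell and WASP in most blood cells, so that fewer cells of a type and less RNA per cell cannot be told apart in these values.

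Arpc5l and Arpc5 encode alternative forms of one ARP2/3 subunit, and their ratio differed more between the 2 kinds of cells than that of the other such pair. The first 300 bases of their coding sequences are therefore shown, from the GENCODE M21 transcripts of the mouse genome (GRCm38), with the bases that are unlike or unaligned in the other gene in capitals.
Arpc5l: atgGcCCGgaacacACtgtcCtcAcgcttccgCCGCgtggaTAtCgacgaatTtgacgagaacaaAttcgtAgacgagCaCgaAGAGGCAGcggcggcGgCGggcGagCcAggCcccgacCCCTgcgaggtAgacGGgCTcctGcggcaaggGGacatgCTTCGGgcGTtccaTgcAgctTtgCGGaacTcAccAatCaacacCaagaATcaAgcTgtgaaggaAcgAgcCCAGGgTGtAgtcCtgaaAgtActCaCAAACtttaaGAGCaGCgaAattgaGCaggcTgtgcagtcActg
Arpc5: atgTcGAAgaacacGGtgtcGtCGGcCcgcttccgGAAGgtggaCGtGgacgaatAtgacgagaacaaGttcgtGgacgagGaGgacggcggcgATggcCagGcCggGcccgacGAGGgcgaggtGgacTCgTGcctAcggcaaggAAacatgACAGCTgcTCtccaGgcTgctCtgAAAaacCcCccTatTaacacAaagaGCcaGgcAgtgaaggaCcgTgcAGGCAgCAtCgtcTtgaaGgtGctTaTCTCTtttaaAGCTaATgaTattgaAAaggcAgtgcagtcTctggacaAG
Over 450 aligned bases, 321 were identical (71.3%), and the longest identical run was 21 bases. Over the whole coding sequences, 138 of the 459 bases of Arpc5l and 132 of the 453 bases of Arpc5 would be in capitals. Arpc1b and Arpc1a, the other pair of alternative subunits, were 73.5% identical over 1101 aligned coding bases, also with a longest run of 21, and the 2 actin-related proteins Actr3 and Actr2 were 58.8% identical over 1147. Processed pseudogenes at least 90% identical over 100 bases or more were found for 6 of the 10 genes, 10 in all, and the largest of them held reads equal to 2.45% of those of its gene (Actr3). None was found for Arpc3, Arpc4, Arpc5l or Was.

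Promoter windows from RefSeq (GRCm38.p6, 250 bases before to 50 after the start of the RefSeq gene model) were at hand for 9 of the 10 genes and not for Arpc5l. That start lay 433 bases inside the GENCODE span of Arpc2 that is given with its level, and within 41 bases of the GENCODE start for the other 8. The windows of Arpc2, the highest gene of the set, of Arpc1b, which differed between leukemia cells and macrophages, and of Was are shown. Capitals mark GGAAGT, the core of an ETS-type motif, on either strand.
Arpc2 (chr1:74236267-74236566, + strand): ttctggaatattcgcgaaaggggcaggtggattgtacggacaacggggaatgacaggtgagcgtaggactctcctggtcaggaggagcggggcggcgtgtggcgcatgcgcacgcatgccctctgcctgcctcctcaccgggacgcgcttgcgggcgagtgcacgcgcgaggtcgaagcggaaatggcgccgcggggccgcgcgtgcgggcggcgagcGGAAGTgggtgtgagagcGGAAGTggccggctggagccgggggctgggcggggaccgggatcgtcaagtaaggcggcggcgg
Arpc1b (chr5:145114006-145114305, + strand): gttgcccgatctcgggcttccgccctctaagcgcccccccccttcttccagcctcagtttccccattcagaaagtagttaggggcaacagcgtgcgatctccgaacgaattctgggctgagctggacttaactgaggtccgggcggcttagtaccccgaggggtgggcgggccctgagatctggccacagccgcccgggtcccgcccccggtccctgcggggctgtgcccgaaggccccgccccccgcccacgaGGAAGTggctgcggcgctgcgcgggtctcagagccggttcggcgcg
Was (chrX:8090442-8090741, - strand): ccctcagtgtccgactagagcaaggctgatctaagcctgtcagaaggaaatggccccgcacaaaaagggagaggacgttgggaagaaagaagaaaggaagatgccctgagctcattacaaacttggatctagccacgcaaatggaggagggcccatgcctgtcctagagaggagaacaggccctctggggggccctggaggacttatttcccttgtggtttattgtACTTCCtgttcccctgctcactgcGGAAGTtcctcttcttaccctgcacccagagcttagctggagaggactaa
GGAAGT occurred on at least 1 strand in 8 of the 9 windows, all but that of Arpc5, and in 23.8% of all 32851 windows. In all 8 the nearest match began within 30 bases of the RefSeq start, counted as 0, at -14 in Arpc2, 4 in Arpc1b and 0 in Was. A match within 30 bases, a limit set after the positions had been seen, was present in 7.46% of all windows. The longer GAGGAAGT, the PU.1-type form that contains GGAAGT, occurred in 1 window, that of Arpc1b, and in 3.2% of all. The GC box GGGCGG occurred in 6 of the 9 windows and in 35.7% of all, with 7 matches in Arpc1b and 0 in Was. The full CRE TGACGTCA was in none of the 9 and in 1.79% of all, and a CArG box in 1, that of Arpc4, and in 1.63% of all. These matches describe the letters of the windows and say nothing of a factor bound there.

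The actin-related subunits Actr2 and Actr3 form the template on which the new filament starts. For each gene the values with and without iron are set side by side, the library without iron first. Actr3 (chr1:125392905-125435727) stood at 200.0 and 184 FPKM in macrophages of mice without leukemia (WT, WT/FE), at 164 and 211 FPKM in macrophages of leukemic mice (MA9, MA9/FE), and at 186 and 185 FPKM in the leukemia cells. Its level in both leukemia libraries lay within the range of the macrophages. Actr2 (chr11:20062304-20112913) was at 93.8 and 81.4 FPKM in macrophages of mice without leukemia, at 85.8 and 91.2 FPKM in those of leukemic mice, and at 102 and 103 FPKM in the leukemia cells. Both leukemia libraries lay above the 4 macrophage libraries, but the highest and the lowest of the 6 values of Actr2 differed by 1.27-fold only. Actr3b, the paralog of Actr3 that is best known from brain, was at 0.30 to 1.01 FPKM in the 6 libraries.

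Arpc2 and Arpc4 are the core on which the complex is held together and bound to the mother filament. Arpc2 (chr1:74236084-74268209) was the highest of the 10 genes in all 6 libraries, with 225 and 207 FPKM in macrophages of mice without leukemia and 199.7 and 261 FPKM in those of leukemic mice. In the leukemia cells it stood at 272 and 266 FPKM, next to the value of MA9/FE macrophages. Arpc4 (chr6:113378115-113390448) was at 77.1 and 64.4 FPKM in macrophages of mice without leukemia, at 70.1 and 84.1 FPKM in those of leukemic mice, and at 105 and 91.0 FPKM in the leukemia cells. The exons of Arpc4 share 283 bases with Ttll3 on the same strand, which was at 3.85 to 6.75 FPKM. Arpc3 (chr5:122391878-122414184), a small subunit that sits against Actr3, was at 81.6 and 65.7 FPKM in macrophages of mice without leukemia, at 78.3 and 101 FPKM in those of leukemic mice, and at 88.8 and 80.8 FPKM in the leukemia cells. Of these 3 genes Arpc4 had the widest range, 1.63-fold from its lowest to its highest library.

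Arpc1a and Arpc1b are alternative forms of the subunit that contacts WASP, and Arpc1b is the form typical of blood cells. Arpc1b (chr5:145114215-145130705) was at 108 and 103 FPKM in macrophages of mice without leukemia, at 101 and 120 FPKM in those of leukemic mice, and at 213 and 203 FPKM in the leukemia cells. The leukemia cells and the macrophages did not overlap, and the leukemia cells also stood above every macrophage library for Actr2, Arpc2, Arpc4 and Was. How many of all genes show no such overlap, above or below, was not counted, so that it is not read as particular to these genes. The limma fit given below called 37.2% of all genes between leukemia cells and macrophages of leukemic mice. Arpc1a (chr5:145083830-145108761), the neighbour of Arpc1b on the chromosome, was at 28.5 and 27.1 FPKM in macrophages of mice without leukemia. It was at 32.0 and 34.1 FPKM in those of leukemic mice, and at 30.6 and 29.3 FPKM in the leukemia cells, so that here the 2 kinds of cells overlapped. Arpc5 (chr1:152766542-152775597), the smallest subunit, was at 183 and 158 FPKM in macrophages of mice without leukemia, at 153 and 199.9 FPKM in those of leukemic mice, and at 164 and 167 FPKM in the leukemia cells. Arpc5l (chr2:39005348-39015877) was at 45.7 and 42.9 FPKM in macrophages of mice without leukemia, at 33.4 and 48.8 FPKM in those of leukemic mice, and at 14.8 and 15.6 FPKM in the leukemia cells. Both leukemia libraries were below every macrophage library, and over the 6 libraries Arpc5l had the widest range of the 10 genes, 3.3-fold. Was (chrX:8081453-8090498) was at 61.0 and 62.3 FPKM in macrophages of mice without leukemia, at 56.8 and 60.2 FPKM in those of leukemic mice, and at 88.4 and 83.5 FPKM in the leukemia cells. Among the macrophages it had the narrowest range of the 10 genes, 1.1-fold.

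**Figure D1:**
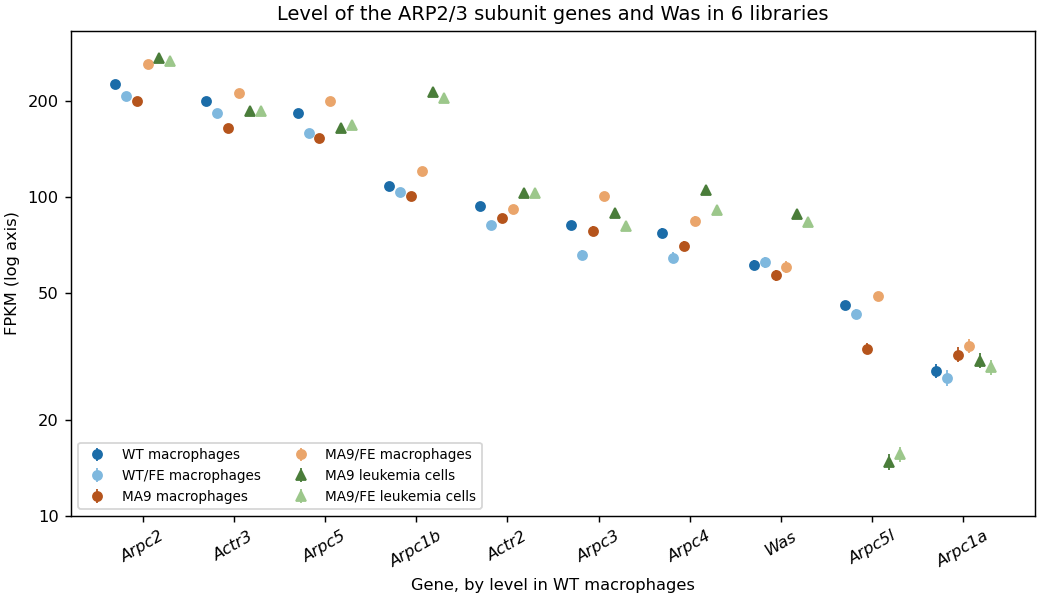
Level of each gene in FPKM (log axis) in the 6 libraries, with genes ordered by their level in WT macrophages. Circles are macrophage libraries, triangles leukemia cell libraries, and bars the 95% counting interval, often smaller than the symbol. The triangles stand well above the circles for Arpc1b (213 and 203 FPKM) and Was (88.4 and 83.5 FPKM) and below them for Arpc5l (14.8 and 15.6 FPKM).

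The order of the 10 levels was the same in WT, WT/FE and MA9 macrophages. In WT macrophages it ran Arpc2, Actr3, Arpc5, Arpc1b, Actr2, Arpc3, Arpc4, Was, Arpc5l and Arpc1a, and only the neighbours Arpc3 (79.2 to 84.0 FPKM) and Arpc4 (74.6 to 79.7 FPKM) had counting intervals that overlapped. Intervals also overlapped for Arpc3 (63.4 to 68.09 FPKM), Arpc4 (61.9 to 66.97 FPKM) and Was (59.88 to 64.8 FPKM) in WT/FE macrophages. They did so for Arpc5l (32.1 to 34.7 FPKM) and Arpc1a (30.35 to 33.73 FPKM) in MA9 macrophages. Counting error thus left the order of these genes open there. In MA9/FE macrophages Arpc3 and Actr2 changed places. In the MA9 leukemia cells Arpc1b stood second, after Arpc2, and Arpc5l last, after Arpc1a. The intervals of Arpc4 (102 to 108 FPKM) and Actr2 (100.3 to 104 FPKM) overlapped there, as did those of Arpc3 (86.2 to 91.4 FPKM) and Was (85.7 to 91.3 FPKM).

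The summed FPKM of the 9 subunit genes was 1042.2 and 933.6 in macrophages of mice without leukemia, 916.9 and 1151.2 in those of leukemic mice, and 1177.3 and 1142.3 in the leukemia cells, again with the library without iron first. Of this sum Arpc1b took 10.3% to 11.0% in the macrophages and 18.1% and 17.8% in the leukemia cells. Arpc5l took 3.64% to 4.59% in the macrophages and 1.26% and 1.36% in the leukemia cells. The level of Was was 5.23% to 6.67% of the subunit sum in the macrophages and 7.51% and 7.31% of it in the leukemia cells.

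Within the pairs of alternative subunits, the blood cell form Arpc1b made up 79.1% of the FPKM of Arpc1b and Arpc1a in WT macrophages (78.2% to 80.0%), 79.2% with iron, and 75.9% and 77.9% in macrophages of leukemic mice without and with iron. In both leukemia libraries it made up 87.4% (86.8% to 88.0%). The ratio of Arpc1b to Arpc1a was 2.21 times higher in leukemia cells than in macrophages of MA9 mice (2.04 to 2.39) and 1.97 times higher in MA9/FE mice (1.82 to 2.14). Arpc5l made up 20.0% of the FPKM of Arpc5l and Arpc5 in WT macrophages (19.4% to 20.6%), 21.3% with iron, and 17.9% and 19.6% in macrophages of leukemic mice without and with iron. In the leukemia cells its share was 8.25% (7.8% to 8.73%) without and 8.52% (8.06% to 9.0%) with iron. The ratio of Arpc5l to Arpc5 was 2.43 times lower in leukemia cells than in macrophages of MA9 mice (2.25 to 2.62) and 2.62 times lower in MA9/FE mice (2.44 to 2.82). These ratios within a library do not depend on how the libraries are scaled to each other, but they can shift with a trend of the fold change with exon length.

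The pair ratios differed less between libraries of 1 kind of cell. In macrophages without iron, Arpc1b to Arpc1a was 1.20 times lower in MA9 than in WT mice (1.11 to 1.30) and Arpc5l to Arpc5 1.14 times lower (1.08 to 1.22), and with iron they were 1.08 times (0.995 to 1.17) and 1.11 times lower (1.05 to 1.17). With iron, the ratio of Arpc1b to Arpc1a was 1.01 times that without it in WT macrophages (0.927 to 1.09), 1.12 times in MA9 macrophages (1.03 to 1.21) and 1.0 times in leukemia cells (0.926 to 1.08). For Arpc5l to Arpc5 these values were 1.08 (1.02 to 1.14), 1.12 (1.05 to 1.19) and 1.04 (0.95 to 1.13). The pair ratios were not corrected for the trend with exon length. Exon lengths were 5115 and 2567 bases for Arpc1b and Arpc1a, and 4498 and 2276 for Arpc5l and Arpc5. With that trend removed, the log2 fold changes from WT/FE to MA9/FE macrophages were 0.27 for Arpc1b and 0.23 for Arpc1a. They were 0.2 for Arpc5l and 0.22 for Arpc5. From MA9 to MA9/FE macrophages they were 0.32 and 0.03, and 0.57 and 0.31.

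**Figure D2:**
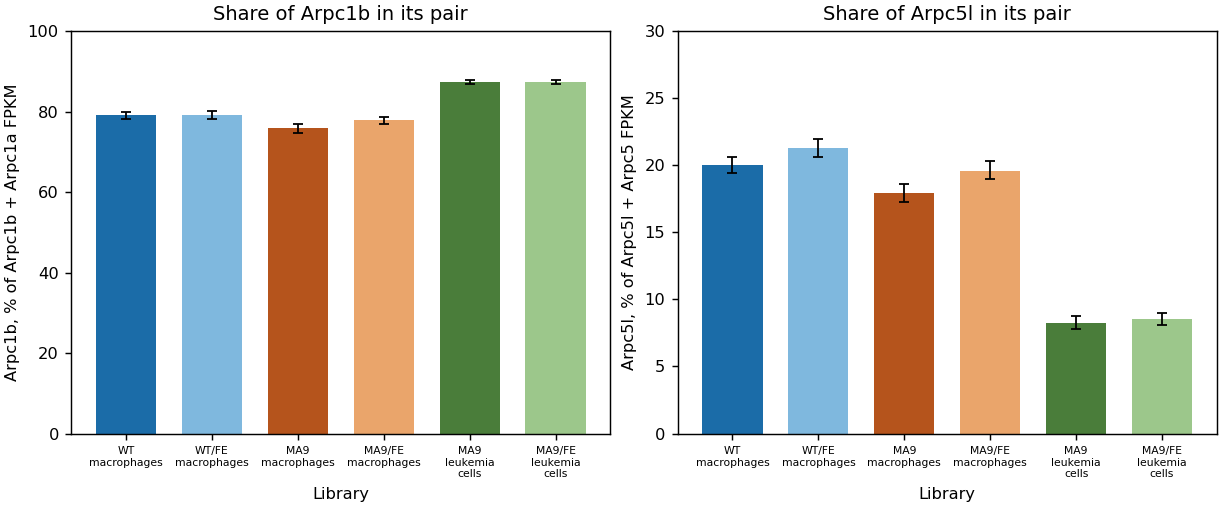
Share of Arpc1b in the FPKM of Arpc1b and Arpc1a (left, %) and of Arpc5l in the FPKM of Arpc5l and Arpc5 (right, %) in each library, with the 95% counting interval as a bar. The axes have different scales. In the leukemia cells Arpc1b made up 87.4% of its pair, against 75.9% to 79.2% in macrophages, and Arpc5l 8.25% and 8.52%, against 17.9% to 21.3%.

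Leukemia cells were compared with macrophages of the same kind of mice in 2 ways, by the fold of each pair of libraries on the log2(FPKM + 1) scale, for which a fold of at least 2 was counted without a test, and by a limma fit over the 4 libraries of leukemic mice. In MA9 mice 2 of the 10 genes had a fold of at least 2, beside 19.8% of all genes tested, and in MA9/FE mice 1 of 10, beside 22.7%. Arpc1b was 2.07 times higher in leukemia cells than in macrophages of MA9 mice (2.02 to 2.12, log2 fold change 1.04) and 1.66 times higher in MA9/FE mice (1.62 to 1.70, log2 0.73). Arpc5l was 2.31 times lower in MA9 mice (2.16 to 2.48, log2 -1.15) and 3.20 times lower in MA9/FE mice (2.99 to 3.41, log2 -1.61). Was was 1.52 times (1.45 to 1.6) and 1.36 times (1.29 to 1.43) higher. The other 7 genes had log2 fold changes between -0.09 and 0.55 in MA9 mice and between -0.34 and 0.14 in MA9/FE mice. The median of the 10 genes was 0.18 in MA9 mice, beside -0.01 for all genes, and -0.11 in MA9/FE mice, beside -0.03. No common direction was thus seen, with 8 genes above 0 in MA9 mice and 5 in MA9/FE mice.

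In the limma fit, with iron as a second term and Benjamini-Hochberg adjustment over 16289 genes, 2 of the 10 genes passed an adjusted p of 0.05, beside 37.2% of all genes. Arpc5l was lower in the leukemia cells with a log2 fold change of -1.40 (SE 0.182, adjusted p = 0.00519), and Arpc1b was higher with 0.86 (SE 0.163, adjusted p = 0.0158). Was did not pass, with 0.50 (SE 0.148, adjusted p = 0.0568), although it was higher in both pairs of libraries, and its adjusted p was 0.038 with libraries scaled by total reads and 0.0389 with the median of ratios. When no minimum of reads was set, neither Arpc5l (adjusted p = 0.0569) nor Arpc1b (adjusted p = 0.0755) passed. The other 7 genes had adjusted p-values between 0.264 and 0.819. The fit leaves 1 degree of freedom among the 4 libraries and borrows the spread of the other genes. The tissue in the labels differs with the kind of cell, and the 2 cannot be told apart. The summed B cell markers were 1277 and 2209 FPKM in the macrophages and 22.8 and 21.8 FPKM in the leukemia cells compared here, and their part in the result was not tested. The exons of Arpc1b share 931 bases with Pdap1 on the opposite strand, which was at 17.0 and 15.0 FPKM in these macrophages and at 19.5 and 19.4 FPKM in the leukemia cells, and whether strand was used in counting is not given in the sources used here. Arpc5l shares 62 exon bases with Rpl35 on the opposite strand, at 254 to 450 FPKM.

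Leukemia in the host was compared next, between macrophages of MA9 and WT mice and between those of MA9/FE and WT/FE mice. No member reached a fold of 2 in either comparison, beside 4.72% and 4.59% of all genes. Without iron 9 of the 10 genes were lower in macrophages of MA9 mice, and the median of the 10 log2 fold changes was -0.12, beside 0.0 for all genes. The lowest was Arpc5l, 1.36 times lower (1.29 to 1.43, log2 -0.43), and the one above 0 was Arpc1a, with 0.18. With iron 9 of the 10 were higher in MA9/FE than in WT/FE macrophages, with a median of 0.29, beside 0.01. The highest was Arpc3, 1.55 times higher (1.48 to 1.63, log2 0.63), and the one below 0 was Was, with -0.03. The fold change fell with exon length (Spearman rho -0.271 across genes), and the median without that trend was 0.22. Without iron the summed markers of WT and MA9 macrophages were 2286 and 1277 FPKM for B cells, 1019 and 2064 FPKM for plasma cells, 13.4 and 1952 FPKM for neutrophils and 551 and 528 FPKM for macrophages. With iron they were 2156 and 2209, 990 and 2547, 11.3 and 996, and 926 and 1177 FPKM. Their part in the result was not tested. In the limma fit of the 4 macrophage libraries none of the 10 genes passed for leukemia, beside 2.23% of all 16263 genes, and the lowest adjusted p was 0.531, for Arpc1a (log2 fold change 0.27, SE 0.175).

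The question of iron was put to 3 pairs of libraries, WT/FE against WT and MA9/FE against MA9 macrophages, and MA9/FE against MA9 leukemia cells. No member reached a fold of 2 in any of the 3, beside 1.27%, 2.47% and 0.863% of all genes. In WT mice all 9 subunit genes were lower with iron, between -0.07 (Arpc1b) and -0.31 (Arpc3) on the log2 scale, and Was was at 0.02. In MA9 mice all 10 genes were higher with iron, between 0.12 (Actr2, Arpc1a and Was) and 0.57 (Arpc5l). There Arpc5l was 1.5 times higher (1.42 to 1.58), Arpc2 1.34 times (1.30 to 1.38), Arpc5 1.34 times (1.30 to 1.39), Actr3 1.32 times (1.29 to 1.35) and Arpc3 1.32 times (1.26 to 1.38). The median of the 10 genes was -0.13 in WT and 0.34 in MA9 macrophages, beside -0.01 and 0.01 for all genes. In leukemia cells the 10 values lay between -0.21 (Arpc4) and 0.07 (Arpc5l), with a median of -0.05, beside 0.0.

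Lower with iron in WT and higher with iron in MA9 macrophages was thus the pattern of 9 of the 10 genes, all but Was. Of the 15807 genes tested in both comparisons, 31.2% had it, and 56.7% had opposite signs in either order. The difference between the hosts was largest for Arpc3 (0.71 on the log2 scale), Arpc5l (0.67) and Arpc5 (0.63) and was 0.10 for Was. It was not tested, since it rests on 4 libraries. In MA9/FE against MA9 macrophages the log2 fold change fell with exon length (Spearman rho -0.278 across genes, which are not independent replicates), and with that trend removed the median of the 10 genes was 0.29. All 10 stayed above 0, but Was was then at 0.01, Arpc1a at 0.03 and Arpc4 at 0.18. In WT/FE against WT macrophages rho was 0.168 and the median without the trend was -0.12. From MA9 to MA9/FE macrophages the summed macrophage markers went from 528 to 1177 FPKM, those of B cells from 1277 to 2209 FPKM and those of neutrophils from 1952 to 996 FPKM. From WT to WT/FE macrophages these sums went from 551 to 926, from 2286 to 2156 and from 13.4 to 11.3 FPKM. With iron, erythroid markers went from 297 to 517 FPKM in MA9 and from 99.7 to 212 FPKM in WT macrophages. Summed plasma cell markers went from 2064 to 2547 FPKM in MA9 and from 1019 to 990 FPKM in WT macrophages. In MA9 macrophages Jchain (1357 to 1686 FPKM) and Mzb1 (506 to 679 FPKM) rose, while Sdc1, Prdm1 and Xbp1 fell. In WT macrophages Jchain fell (645 to 601 FPKM), while the other plasma cell markers rose. The part of all these marker changes in the result was not tested.

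The limma fit of iron over the 3 pairs called 0 of 17149 genes (0.0%), with 598 at an unadjusted p under 0.05, and the 10 genes had adjusted p-values of 0.992 to 0.996. The pairing there was by host and kind of cell, not by animal. The fit of iron over the 4 macrophage libraries called 0.0123% of genes and none of the 10, with an estimate nearest to a change for Arpc5l (log2 0.23, SE 0.213, adjusted p = 1). A change with iron that differs between WT and MA9 macrophages counts as error in these fits. A p-value above the threshold does not show that iron left these genes as they were.

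**Figure D3:**
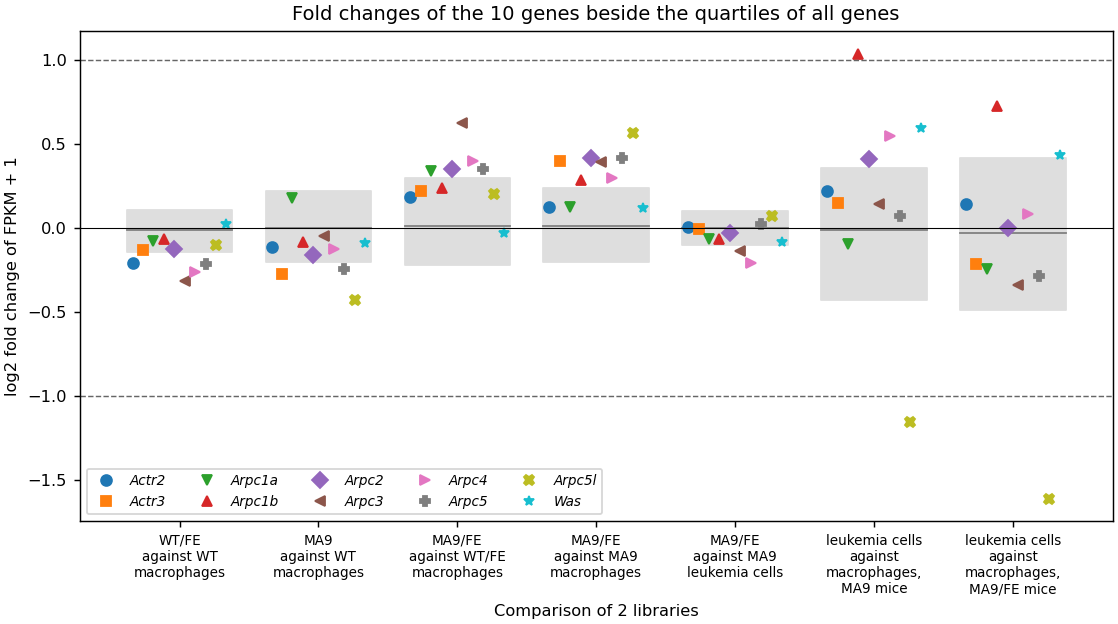
Log2 fold change of FPKM + 1 of the 10 genes (symbols) in the 7 comparisons of 2 libraries, with the quartiles (grey band) and the median (grey line) of all genes tested and the fold of 2 as dashed lines. The symbols sit low in WT/FE against WT (median -0.13), high in MA9/FE against MA9 macrophages (median 0.34), and outside the dashed lines for Arpc1b and Arpc5l of MA9 mice and Arpc5l of MA9/FE mice.

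The regulators and partners of the complex were followed in 61 other genes of the pathway, in lists given with the methods. In the comparisons among macrophages 1 of them had a fold of at least 2 (Cttn, in MA9 against WT), beside 1.27% to 4.72% of all genes, and between the leukemia cells none had, beside 0.863%. In leukemia cells against macrophages of MA9 mice 2 of 58 tested were at least 2-fold higher and 5 lower, beside 19.8% of all genes in either direction. In MA9/FE mice they were 1 and 5 of 59, beside 22.7%. In the limma fit 16 of 58 passed (27.6%, beside 37.2% of all genes), 4 higher and 12 lower in the leukemia cells. None of 59 passed for iron or for leukemia. The limma values of these other pathway genes were taken at the main setting only and not repeated under the alternatives. Over all genes, calls for the kind of cell fell from 6059 to 3034 when no minimum of reads was set.

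Was belongs to a family of nucleation promoting factors. Its widely expressed relative Wasl (N-WASP) was at 5.69 to 8.53 FPKM in the 4 macrophage libraries and at 4.43 and 4.14 FPKM in the leukemia cells. Was thus exceeded Wasl in all 6 libraries. Wipf1, whose product WIP binds and protects WASP, was at 40.4 and 42.4 FPKM in MA9 and MA9/FE macrophages and at 29.0 and 30.1 FPKM in the leukemia cells, lower in the fit (log2 -0.52, SE 0.14, adjusted p = 0.0433). The WAVE complex answers to RAC1 in lamellipodia. Its blood cell subunit Nckap1l (HEM1) was at 61.5 to 89.6 FPKM in the 6 libraries. Cyfip2 was at 53.0 and 38.8 FPKM in MA9 and MA9/FE macrophages and at 26.2 and 22.0 FPKM in the leukemia cells (log2 -0.94, adjusted p = 0.00879 by limma). Abi3 was at 7.41 and 8.16 FPKM in these macrophages and at 0.17 and 0.35 FPKM in the leukemia cells (log2 -2.82, adjusted p = 0.000363 by limma). Cyfip1, the alternative to Cyfip2, was higher in the leukemia cells (log2 0.52, adjusted p = 0.0439 by limma), as was Dock8, an exchange factor for CDC42 (log2 0.75, adjusted p = 0.0254). Of the genes that passed in the other direction, Nckap1 (log2 -0.71, adjusted p = 0.0396), Fnbp1 (-0.57, 0.0349), Coro1b (-0.54, 0.0477) and Vasp (-0.58, 0.0497) were lower in the leukemia cells by limma, Nckap1 from no more than 1.09 FPKM in any library. These 6 genes were named after their values had been seen.

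Among upstream signals Fnbp1l (TOCA-1), a membrane-bending adaptor of N-WASP, was at 0.92 and 0.36 FPKM in MA9 and MA9/FE macrophages and at 9.14 and 12.5 FPKM in the leukemia cells (log2 2.82, SE 0.25, adjusted p = 0.00171 by limma). The SH2-SH3 adaptor Nck2 was at 10.1 and 8.83 FPKM in these macrophages and at 2.74 and 2.62 FPKM in the leukemia cells (log2 -1.55, adjusted p = 0.0019). Of the proteins that act on branches or on the complex itself, Arpin, an inhibitor of ARP2/3, was at 2.89 to 5.40 FPKM in the 4 macrophage libraries and at 0.02 FPKM in each leukemia library (log2 -2.08, adjusted p = 0.000977 by limma). Gmfg, a debranching factor of blood cells, was at 28.4 and 44.3 FPKM in MA9 and MA9/FE macrophages and at 79.4 and 71.4 FPKM in the leukemia cells (log2 1.01, adjusted p = 0.0286). Hcls1 (HS1), which stabilizes branches in blood cells, was at 149 and 187 FPKM in these macrophages and at 105 and 96.0 FPKM in the leukemia cells (log2 -0.78, adjusted p = 0.0288). Its relative Cttn (cortactin) was at 0.65 FPKM in WT and 3.07 FPKM in MA9 macrophages, a log2 fold change of 1.32. Coro1a, a coronin of leukocytes, was at 438 to 661 FPKM in the 6 libraries.

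Among actin and its partners, Actb was at 1107 and 1379 FPKM in MA9 and MA9/FE macrophages and at 906 and 878 FPKM in the leukemia cells. Tmsb4x, whose product thymosin beta 4 holds actin monomers, was at 1766 and 2841 FPKM in these macrophages and at 1155 and 1108 FPKM in the leukemia cells (log2 -1.04, adjusted p = 0.0248 by limma). Evl, a filament elongation factor, was at 58.5 and 76.4 FPKM in the macrophages and at 26.5 and 27.1 FPKM in the leukemia cells (log2 -1.34, adjusted p = 0.0046). With iron in MA9 macrophages the 17 genes of this list had a median log2 fold change of 0.21, with 13 above 0, while the 11 WAVE genes had a median of -0.17 over the 9 tested.

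**Figure D4:**
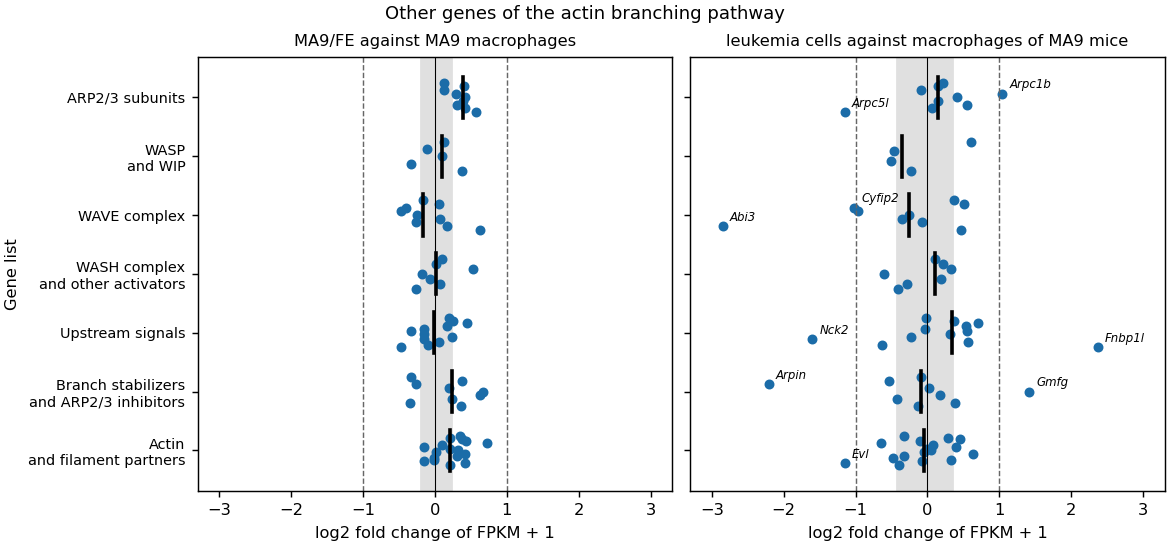
Log2 fold change of FPKM + 1 of each tested gene (points) by list, with the list median (black tick), the quartiles of all genes (grey band) and a fold of 2 (dashed), for iron in MA9 macrophages (left) and for leukemia cells against macrophages of MA9 mice (right). The subunits include Arpc1b and Arpc5l beyond the dashed lines on the right (1.04 and -1.15), and no gene is beyond them on the left.

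The profile of the 10 genes over the 6 libraries, as the mean of their centred log2 levels, was 0.0 and -0.14 in macrophages of mice without leukemia, -0.13 and 0.16 in those of leukemic mice, and 0.09 and 0.03 in the leukemia cells, without and with iron in turn. Among 5662 other genes with a mean of at least 10 FPKM, the nearest profiles by root mean square difference over the 6 libraries were those of Sart1 and Sh3glb2 (both 0.022), Ociad1 (0.027), Szrd1 (0.038) and Ing1 (0.041). Sart1, for example, was at 28.9 and 26.8 FPKM in macrophages of mice without leukemia, at 26.3 and 31.2 FPKM in those of leukemic mice, and at 30.1 and 29.8 FPKM in the leukemia cells.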

How the data were processed

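RNA of 6 libraries was analysed, 1 per condition. The authors aligned reads to the mouse genome (mm10) with Bowtie2 2.2.5 and used RSEM, according to the submitters' processing notes, and deposited FPKM for 54532 genes by Ensembl identifier. Symbols and exon lengths came from GENCODE M21 for 54495 of them. FPKM times exon length gave whole reads, within 0.05 reads, for 96.8% to 97.0% of values above 0, and for the 10 genes in all libraries. Expression scaled by length and total alone can shift with the makeup of a library, so pairs were scaled by TMM. Genes were counted, without a test, when log2(FPKM + 1) differed by 1 or more (a fold of 2) and 1 of the pair had 10 or more reads, and the pseudocount understates folds of low genes. Fits used limma 3.58.1 (R 4.3.3) on the same scale, over genes with 10 or more reads in 2 libraries or more. Calls had a Benjamini-Hochberg adjusted p of 0.05 or less over all genes. As 1 library stands for each condition, no spread between like libraries could be measured. The error in each fit is the departure of single libraries from additive terms, moderated over genes, and p-values rest on it. Counting intervals are Poisson or binomial at 95% and cover counting error only. The scripts were tested on simulated data. Other steps ran in Python 3.11.15 (statsmodels 0.14.6, pandas 2.3.3, scipy 1.17.1, numpy 2.4.6, matplotlib 3.10.9). The members and lists were chosen with earlier results of these data known. Named are the 10 genes, the other pathway genes that differed 2-fold or more in any comparison and had 100 reads or more, Wasl, Wipf1, Hcls1, Nckap1l, Coro1a, Actb and Actr3b, and the 5 nearest profiles. Cyfip1, Dock8, Nckap1, Fnbp1, Coro1b and Vasp were added after their values had been seen, so that all pathway genes that passed limma are named. The 61 other pathway genes comprised Actr3b and lists of WASP and WIP (4 besides Was), the WAVE complex (11), the WASH complex and other activators (7), upstream signals (12), branch stabilizers and ARP2/3 inhibitors (9) and actin and filament partners (17). The alternatives were other scalings, another pseudocount, other minimums of reads, removal of the exon length trend, each pair of libraries left out and no pair term. T cell, NK cell and erythroid markers were also summed, with MA9 before MA9/FE leukemia cells. T cell markers (8) gave 66.2 to 84.9 FPKM in macrophages and 2.79 and 2.66 FPKM in leukemia cells. NK cell markers (8) gave 98.4 to 154 FPKM in macrophages and 1.24 and 1.32 FPKM in leukemia cells. Erythroid markers (10) gave 99.7 to 517 FPKM in macrophages and 430 and 164 FPKM in leukemia cells.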

Additional observations from a re-analysis of the deposited data

Results flagged for a closer look

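For 9 genes the log2 fold change with iron had opposite signs in WT and MA9 macrophages. The value in MA9 minus that in WT macrophages was 0.33 for Actr2, 0.53 for Actr3, 0.20 for Arpc1a, 0.36 for Arpc1b, 0.55 for Arpc2, 0.71 for Arpc3, 0.56 for Arpc4, 0.63 for Arpc5 and 0.67 for Arpc5l. The difference was not tested, since each of the 4 conditions has 1 library. Opposite signs, in either order, were found in 56.7% of 15807 genes tested in both comparisons, and the order of these 9 genes, lower with iron in WT and higher with iron in MA9 macrophages, in 31.2%.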

How the results depend on the processing

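How many of the 10 genes differed 2-fold or more was the same under all 7 other settings in each of the 7 comparisons. The 10 genes' 70 log2 fold changes kept their sign under other scalings, a pseudocount of 0.1 and removal of the length trend, except in 3 of 350 values, and moved by at most 0.16. The exceptions lay near 0. Actr2 went from 0.008 to -0.011 (median of ratios) and Actr3 from -0.005 to 0.0 (length trend removed, a value just above 0) for MA9/FE against MA9 leukemia cells, and Arpc2 from 0.002 to -0.003 (TMM without hemoglobin and immunoglobulin genes) for leukemia cells against macrophages of MA9/FE mice.

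The median of the 10 genes became 0.27, 0.25 and 0.22 (total reads, median of ratios, length trend removed) for MA9/FE against WT/FE macrophages, 0.31, 0.31 and 0.29 for MA9/FE against MA9 macrophages, and -0.08, -0.06 and -0.08 for leukemia cells against macrophages of MA9/FE mice. It became 0.22 and 0.21 (total reads, median of ratios) for leukemia cells against macrophages of MA9 mice and -0.07 (median of ratios) for the leukemia cells.

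Over all genes, 213, 407 and 133 differed 2-fold or more for iron in macrophages without leukemia, in macrophages of leukemic mice and in leukemia cells. These became 784, 1507 and 629 with a pseudocount of 0.1, 481, 739 and 375 with no minimum of reads, and 116, 234 and 60 with at least 50 reads. For leukemia in the host, 799 without and 760 with iron became 1982 and 2082 with a pseudocount of 0.1, and for leukemia cells against macrophages 3380 without and 3819 with iron became 5803 and 6491. With the length trend removed, 488 higher and 272 lower genes became 341 and 391 for MA9/FE against WT/FE macrophages, and 198 and 209 became 134 and 288 for MA9/FE against MA9 macrophages.

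In limma, 2 genes higher and 0 lower were called for iron in macrophages, 4 and 2 (6 in all) by TMM without hemoglobin and immunoglobulin genes, and 0 with a pseudocount of 0.1 (811 at an unadjusted p under 0.05) or no minimum of reads (940). For leukemia in macrophages 363 became 216 with a pseudocount of 0.1 and 0 with no minimum (2877 unadjusted), and for the kind of cell 6059 became 3034 with no minimum. Iron over 3 pairs called 0 genes under every setting, with 38 at an unadjusted p under 0.05 without the pair term and 533 to 793 with 1 pair left out. With 1 pair of libraries left out, the log2 change with iron ranged from -0.10 to 0.05 for Actr2, -0.07 to 0.18 for Actr3, -0.07 to 0.02 for Arpc1a, -0.07 to 0.10 for Arpc1b, -0.08 to 0.18 for Arpc2, -0.23 to 0.12 for Arpc3, -0.24 to 0.03 for Arpc4, -0.10 to 0.21 for Arpc5, -0.02 to 0.31 for Arpc5l and -0.03 to 0.06 for Was. The cause of these differences was not tested. As recovered reads, not per length, Arpc5l made up 30.2% to 34.8% of its pair in macrophages and 15.1% and 15.5% in leukemia cells, and Arpc1b 86.2% to 88.4% and 93.3%. No paired analysis was possible because the labels tie no 2 libraries to the same animal, and the pair term in the fit of iron joins libraries by host and kind of cell only. Depth did not limit the 10 genes, each of which had 1168 or more reads in every library.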
